A study of Drosophila melanogaster with 8 samples.

Results

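*Hug* and *Capa*, 2 neuropeptide genes of the pyrokinin family, and the 4 receptor genes *PK2-R1*, *PK2-R2*, *PK1-R* and *CapaR* were followed through RNA-seq of *fru*+ and *fru*- cells from the adult *Drosophila melanogaster* brain. These 6 of the 17137 reference genes were taken by gene symbol from the table of every library. The family was selected on the levels of *Hug*, which earlier results of these data had shown to be higher in *fru*+ than in *fru*- cells. The values of *Hug* in that contrast are therefore given as a description, and only the other genes, and *Hug* between the sexes, were tested. All 6 genes passed the filter on low values, which asked for a TPM (transcripts per library total, scaled to 1000000) of 1 or more in 2 or more libraries and left 10111 genes in all.

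The 4 groups were male *fru*+, male *fru*-, female *fru*+ and female *fru*- cells, with 2 replicates each. All came from flies of strain w1118 aged 2 to 7 days that carried UAS-mCD8-GFP, MB247-Gal80 and Fru-GAL4. The GAL4 driver reports the fruP1 promoter, so *fru*+ cells are the GFP-positive cells of dissociated central brains without optic lobes, and *fru*- cells are GFP-negative cells from the same brains. MB247-Gal80 silences the reporter in mushroom body Kenyon cells, which were thereby sorted into the *fru*- groups. Each library pools the brains of many flies and many cell types, so that fewer cells of a type and less RNA per cell cannot be told apart in any value below. Only males make the protein FruM from these transcripts.

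The hugin gene encodes a prohormone that is cut into pyrokinin-2, a short amidated peptide. Hugin neurons lie in the subesophageal zone, the part of the brain that receives taste input, and in larvae they link taste to feeding and locomotion. The capa gene encodes CAPA peptides, which act on the renal (Malpighian) tubules, and pyrokinin-1. Its best known cells are neurosecretory cells of the ventral nerve cord, which was not part of the tissue here, with further cells in the subesophageal zone. The receptors couple to G proteins and raise calcium. PK2-R1 and PK2-R2 respond to pyrokinin-2, PK1-R to pyrokinin-1 and CapaR to the CAPA peptides, and the family is related to the neuromedin U receptors of vertebrates.

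Aligned sequence ran from 3.16 to 4.93 Gb per library. *fru* itself was listed at 56.2 and 63.1 TPM in male *fru*+ libraries and 8.19 and 7.39 TPM in male *fru*- libraries. In females it was listed at 71.6 and 61.0 TPM in *fru*+ cells and 3.75 and 15.1 TPM in *fru*- cells, so replicate 2 of the female *fru*- cells held more *fru* than the other *fru*- libraries. None of the 5 neuronal markers was at 0 in a group. They summed to 3075 to 3277 TPM in male *fru*+ and 3420 to 3590 TPM in male *fru*- libraries. In females the sums were 2304 to 3584 TPM in *fru*+ and 2085 to 2439 TPM in *fru*- libraries. By estimate 5 of 5 were higher in male than in female *fru*- cells, with 0 called. The part of these markers in the comparisons between the sexes was not tested. Glial markers, 7 of 7 lower in *fru*+ cells by estimate in both sexes, summed to 729 to 818 TPM in male *fru*+ libraries against 1666 to 1838 TPM in male *fru*- libraries. In females the sums were 500 to 752 TPM in *fru*+ cells and 936 to 2373 TPM in *fru*- cells. Of these, *nrv2* passed the test in both sexes, and none was at 0 in a whole group. The 5 Kenyon cell markers summed to 157 to 210 TPM in male *fru*+ libraries and 460 to 526 TPM in male *fru*- libraries, and to 126 to 222 TPM in female *fru*+ libraries and 168 to 366 TPM in female *fru*- libraries. By estimate 5 of 5 were lower in *fru*+ cells in males and 4 of 5 in females, and *ey* passed in both sexes and *prt* in males. The part of these markers in the differences of *Hug* and *Capa* between *fru*+ and *fru*- cells was not tested.

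*Hug* (FBgn0028374), the source of pyrokinin-2, lies at 12526188 to 12529076 on the plus strand of chromosome 3R and has 3 exons (all coordinates are dm6). In male cells it was listed at 541.6 and 590.2 TPM in *fru*+ libraries and at 5.53 and 4.33 TPM in *fru*- libraries. In female cells it was listed at 1019 and 1843 TPM in *fru*+ libraries and at 1.02 and 59.7 TPM in *fru*- libraries. The 4 *fru*+ libraries all stood above the 4 *fru*- libraries, and the *fru*- libraries of females were the least alike of any group. The ratio of mean TPM was 114.7 in males and 47.1 in females. On the scale log2(TPM + 1) the limma estimate was 6.58 (standard error 1.14) in males and 6.95 (standard error 1.14) in females.

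By replicate number, the male *fru*+ to *fru*- difference of *Hug* was 6.38 and 6.79 on the log2(TPM + 1) scale, and the female difference was 8.98 and 4.92. The spread in females came mainly from the *fru*- libraries. Without female *fru*- replicate 2, the library with the higher *fru* level, the female estimate was 9.41, and without replicate 1 it was 4.496. The difference of differences, male minus female, was -0.37 (standard error 1.61), and its sign depended on which female *fru*- library was left out: it was 2.09 without replicate 1 and -2.83 without replicate 2. The same replicate 2 had the lower of the female *fru*- sums of glial markers, 936 TPM, and the higher Kenyon cell sum, 366 TPM. The Kenyon cell marker *ey* did not follow that sum. It was listed at 30.8 TPM in female *fru*- replicate 1 and 31.0 TPM in replicate 2. The part of this library's makeup in its *Hug* level was not tested.

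*Hug* lies inside *Octbeta3R*, an octopamine receptor gene on the opposite strand, with 0 bp of shared exon, so it sits in intronic sequence of that gene. The libraries were not strand-specific, so reads of *Hug* and *Octbeta3R* within that span are told apart only by position. *Octbeta3R* was listed at 37.3 to 45.2 TPM in *fru*+ and 41.3 to 52.2 TPM in *fru*- libraries. It varied far less than *Hug* did. At 150 bp per read, the coverage of *Hug* amounted to about 6124 to 22175 reads in the *fru*+ libraries, and to about 10.3 and 525 reads in the female and 58.5 and 59.5 reads in the male *fru*- libraries. The lowest *Hug* level therefore rests on very few reads.

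**Figure D1:**
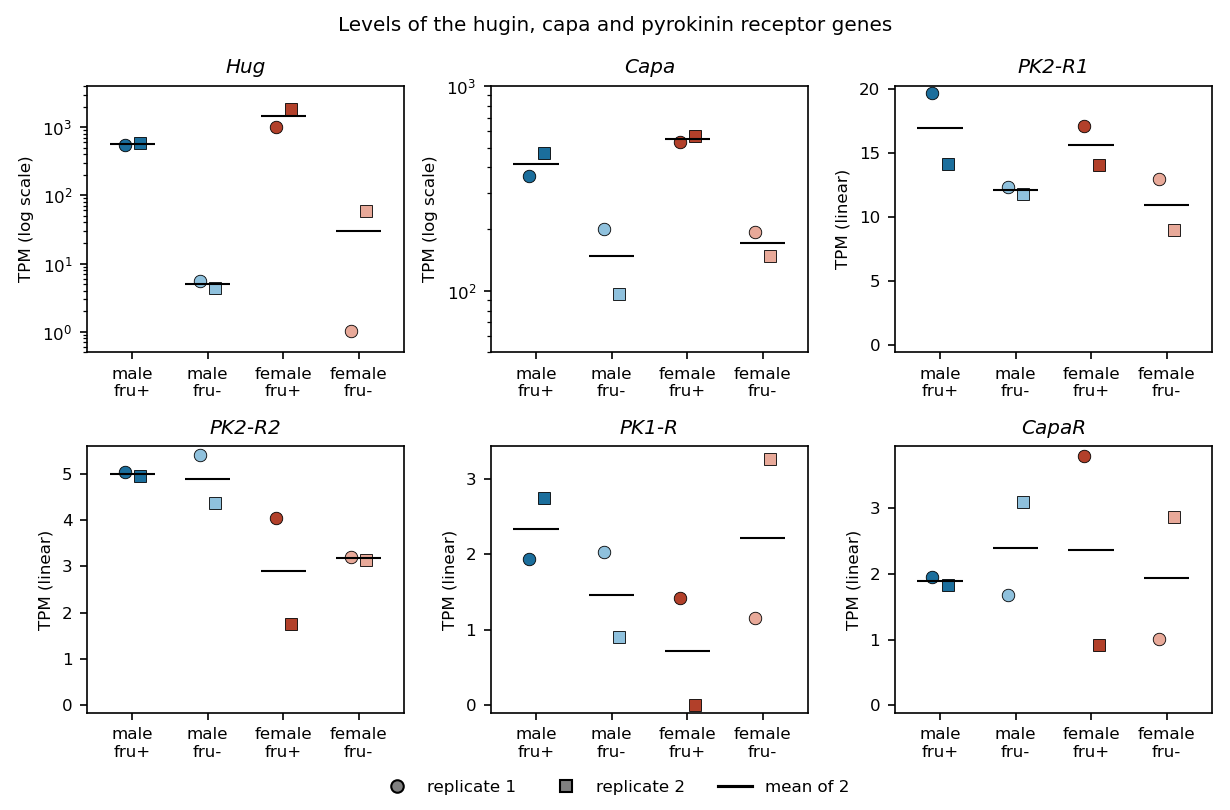
TPM of the 6 genes in each of the 8 libraries, with circles for replicate 1, squares for replicate 2 and a line at the mean of the 2. *Hug* and *Capa* are drawn on log axes and the receptors on linear axes from 0. *Hug*, *Capa* and *PK2-R1* have all 4 *fru*+ libraries above all 4 *fru*- libraries, and *PK2-R2* has all 4 male libraries above all 4 female libraries.

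*Capa* (FBgn0039722), the source of the CAPA peptides and pyrokinin-1, spans 29912991 to 29914346 of chromosome 3R, minus strand, and also has 3 exons. It was listed at 362.7 and 473.0 TPM in male *fru*+ libraries, against 200.3 and 96.6 TPM in male *fru*- libraries. Female *fru*+ cells held 535.3 and 571.4 TPM, against 194.2 and 148.4 TPM in female *fru*- libraries. *Capa* was thus abundant in all 4 groups, and the *fru*+ and *fru*- libraries did not overlap in either sex. Group means were 418 ± 78.0 TPM and 148 ± 73.4 TPM in male *fru*+ and *fru*- cells, and 553 ± 25.5 TPM and 171 ± 32.4 TPM in female *fru*+ and *fru*- cells (SD, n = 2 each).

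*Capa* was higher in female *fru*+ than in female *fru*- cells, by 3.23-fold in mean TPM, and passed the test narrowly. The log2 fold change was 1.70 (standard error 0.30, 95% interval 1.03 to 2.37, limma adjusted p = 0.0437). The *fru*+ and *fru*- cells of a replicate came from the same brains. The replicate number was therefore also fitted as a block. That block is a shift shared by the male and female libraries, so it takes up this pairing only in part. With it the limma adjusted p was 0.0778 and the call was lost. In males the ratio was 2.81 and the log2 fold change 1.57 (standard error 0.30, 95% interval 0.90 to 2.24, limma adjusted p = 0.0598, 0.09996 with the block), which missed the threshold. The estimates of the sexes differed by -0.13 (standard error 0.43, limma adjusted p = 0.999), male minus female, so the pass in females alone does not mark a difference between the sexes.

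The background for these calls was small. Of the 10111 genes tested, 0.514% passed in males and 0.653% in females, 52 and 66 genes. Of the 5 genes of the family that were tested in these contrasts, 0 passed in males and 1, *Capa*, in females. At an unadjusted p under 0.05 limma gave 1354 genes in males and 1488 in females, *Capa* among them in both. By replicate number, the *Capa* difference was 0.85 and 2.28 in males and 1.46 and 1.94 in females on the log2(TPM + 1) scale, in the same direction in 4 of 4. *Capa* was called in 3 of 16 alternative settings in males and in 4 of 16 in females, with estimates of 1.04 to 2.09 and 1.505 to 1.89, and limma adjusted p from 0.0259 to 0.363 and from 0.0174 to 0.227. The female call was lost on leaving out either male *fru*+, either female *fru*+ or either female *fru*- library, with limma adjusted p of 0.0605 to 0.227. The male call was gained without male *fru*- replicate 1 (limma adjusted p = 0.0416) and without female *fru*- replicate 1 (0.0283) or 2 (0.0259).

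The median log2 fold change over all genes was -0.14 in males and -0.11 in females. Scaling the libraries by the median of ratios moved these medians to -0.01 and 0.01 and left the *Capa* estimates positive, at 1.71 and 1.82.

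Within a library the order of the ligand genes was turned round between the cell groups. This is a description, since it uses the *Hug* levels on which the family was selected. The ratio of *Hug* to *Capa* TPM, a comparison of levels per transcript length, was 1.49 and 1.25 in male *fru*+ cells and 0.0276 and 0.0449 in male *fru*- cells. It was 1.90 and 3.23 in female *fru*+ cells and 0.0052 and 0.403 in female *fru*- cells. *Hug* was the higher in all 4 *fru*+ libraries and *Capa* in all 4 *fru*- libraries. Female *fru*- replicate 2, the library where *Hug* stood at 59.7 TPM, held the lower *Capa* level of its group.

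*PK2-R1* (FBgn0038140), a receptor for pyrokinin-2, lies at 13338330 to 13345106 on the plus strand of chromosome 3R. It was listed at 19.7 and 14.2 TPM in male *fru*+ libraries and at 12.3 and 11.8 TPM in male *fru*- libraries. In females it was listed at 17.1 and 14.1 TPM in *fru*+ cells and at 12.9 and 8.96 TPM in *fru*- cells. All 4 *fru*+ libraries stood above all 4 *fru*- libraries, by little. The log2 fold change was 0.44 in males (standard error 0.29, 95% interval -0.22 to 1.10, limma adjusted p = 0.561) and 0.49 in females (standard error 0.29, 95% interval -0.17 to 1.15, limma adjusted p = 0.476), so neither passed.

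Absence of overlap was common. Between 2 and 2 libraries it held for 49.1% of the genes tested in males and 43.5% in females, and between the 4 *fru*+ and the 4 *fru*- libraries for 15.5%. Besides *Hug*, 2 of the 5 other genes, *Capa* and *PK2-R1*, were without overlap in each of these 3 splits.

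*PK2-R2* (FBgn0038139), the other pyrokinin-2 receptor gene, is the neighbour of *PK2-R1*. It lies at 13329070 to 13334166 on the minus strand, 4163 bp away with 0 genes between. Its levels were 5.04 and 4.95 TPM in male *fru*+ libraries and 5.41 and 4.37 TPM in male *fru*- libraries. In females they were 4.04 and 1.75 TPM in *fru*+ cells and 3.21 and 3.14 TPM in *fru*- cells. The groups overlapped by *fru* status in both sexes, and the log2 fold changes were 0.03 in males (standard error 0.38, 95% interval -0.81 to 0.87) and -0.17 in females (95% interval -1.01 to 0.68, limma adjusted p = 0.981 and 0.872). Within a library *PK2-R1* exceeded *PK2-R2* by 2.28-fold to 8.07-fold in TPM.

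The 2 remaining receptor genes were near the lower end of detection. *PK1-R* (FBgn0038201; 3R, 14099832 to 14103122, minus strand), the receptor for pyrokinin-1, was listed at 1.94 and 2.74 TPM in male *fru*+ libraries and 2.03 and 0.904 TPM in male *fru*- libraries. In females it was listed at 1.42 and 0 TPM in *fru*+ cells and at 1.16 and 3.27 TPM in *fru*- cells. *CapaR* (FBgn0037100; 3L, 21558974 to 21562181, minus strand), whose best known site is the principal cells of the renal tubules, was listed at 1.95 and 1.84 TPM in male *fru*+ libraries and 1.68 and 3.10 TPM in male *fru*- libraries. Its female levels were 3.802 and 0.919 TPM in *fru*+ cells and 1.01 and 2.86 TPM in *fru*- cells. Both genes overlapped between *fru*+ and *fru*- libraries in each sex.

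For *PK1-R* the log2 fold change was 0.47 in males (standard error 0.54, 95% interval -0.73 to 1.66) and -0.96 in females (95% interval -2.16 to 0.23, limma adjusted p = 0.734 and 0.439). For *CapaR* it was -0.20 in males (standard error 0.52, 95% interval -1.36 to 0.97) and 0.12 in females (95% interval -1.04 to 1.29, limma adjusted p = 0.894 and 0.932). These genes had coverage worth about 0 to 66.7 reads (*PK1-R*) and 18.1 to 73.9 reads (*CapaR*) per library. Neither gene passed, and the intervals are wide. On the log2(TPM + 1) scale, changes of genes this low are understated.

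**Figure D2:**
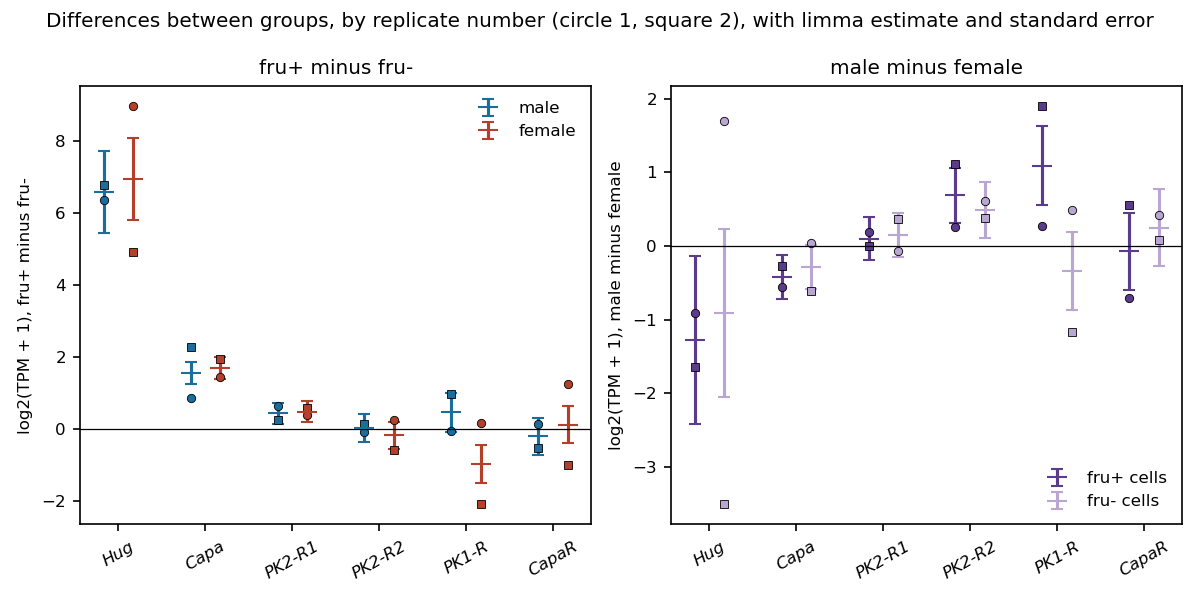
Differences on the log2(TPM + 1) scale for the 6 genes. The left panel gives *fru*+ minus *fru*- in males and females, and the right panel male minus female in *fru*+ and *fru*- cells. Circles and squares are the differences within replicate numbers 1 and 2, and the bars are the limma estimate with its standard error. *Hug* stands highest on the left at 6.58 and 6.95, *Capa* follows at 1.57 and 1.70, and in the right panel no gene passed the test.

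Between the sexes 0 of the 6 genes passed. Of all genes, 0.089% passed when *fru*+ cells of males were set against those of females and 0.109% for *fru*- cells, 9 and 11 genes by limma, with 429 and 505 at an unadjusted p under 0.05 and none of the 6 among those. In *fru*+ cells, *Hug* had 541.6 and 590.2 TPM in males, against 1019 and 1843 TPM in females. Both male levels were below both female levels. The log2 fold change was -1.28 (standard error 1.14, 95% interval -3.82 to 1.27, limma adjusted p = 1). This standard error pools the spread of all 4 groups. It thus takes in the female *fru*- libraries, at 1.02 and 59.7 TPM, which are not part of the contrast. In a fit to only the 4 libraries compared, the limma adjusted p was 0.447, which also missed the threshold. *Capa* also had both male *fru*+ levels below both female levels, the log2 fold change being -0.42 (standard error 0.30, 95% interval -1.09 to 0.26, limma adjusted p = 1).

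In *fru*- cells the *Hug* comparison turned on single libraries. Its male minus female log2 fold change was -0.91 (standard error 1.14, limma adjusted p = 0.949), since the male levels of 5.53 and 4.33 TPM lay between the female levels of 1.02 and 59.7 TPM. Without female *fru*- replicate 1 it was -3.36 (limma adjusted p = 0.00216), and without female *fru*- replicate 2 it was 1.55 (limma adjusted p = 0.116). The direction was thus not fixed by these 4 libraries.

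*PK2-R2* was the 1 gene of the family with both male levels above both female levels in *fru*+ and in *fru*- cells alike. The log2 fold change was 0.69 in *fru*+ cells (standard error 0.38, 95% interval -0.16 to 1.53, limma adjusted p = 1) and 0.49 in *fru*- cells (standard error 0.38, 95% interval -0.35 to 1.34, limma adjusted p = 0.930). Of the genes tested, 3.23% had all 4 male libraries on 1 side of all 4 female libraries, and the pattern of *PK2-R2* was singled out after its values were seen. *PK1-R* had both male *fru*+ levels above both female *fru*+ levels, 1 of which was listed at 0, and an estimate of 1.09 on the log2 scale (standard error 0.54, limma adjusted p = 1). Without overlap between male and female libraries were 4 of the 6 genes in *fru*+ cells, where 29.5% of all genes were, and 1 of 6 in *fru*- cells, where 33.9% were.

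The test of whether the *fru*+ to *fru*- difference depended on sex called 0% of the genes, 0 of 10111 by limma, with 237 at an unadjusted p under 0.05. None of the family was among these 237. *PK1-R* had the largest estimate of the family, 1.43 (standard error 0.76, 95% interval -0.26 to 3.12, limma adjusted p = 0.999), and the other 4 tested genes lay between -0.32 and 0.20.

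The order of levels within a group was set by mean TPM. In both *fru*+ groups it was *Hug*, *Capa*, *PK2-R1* and *PK2-R2*, with no overlap of the replicates between these neighbours, followed by *PK1-R* and *CapaR*, which overlapped each other. In female *fru*+ cells *PK2-R2* and *CapaR* overlapped as well. In male *fru*- cells *Capa* led, then *PK2-R1*, then *Hug* at 4.93 ± 0.845 TPM and *PK2-R2* at 4.89 ± 0.735 TPM (SD, n = 2 each), which could not be ordered. In female *fru*- cells *Capa* led. *Hug*, at 1.02 and 59.7 TPM, overlapped all 4 receptor genes there and could not be ordered against them. *PK2-R2* stood above *CapaR* without overlap while *PK1-R* overlapped both.

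Set among 49 neuropeptide genes, *Hug* ranked 8 by mean TPM in male *fru*+ cells and 29 in male *fru*- cells, and 2 in female *fru*+ cells and 23 in female *fru*- cells. Taken singly, both male *fru*+ libraries had *Hug* at rank 9. It made up 10.8% of the summed TPM of the list in female *fru*+ cells and 4.46% in male *fru*+ cells. In *fru*- cells its share was 0.415% in females and 0.0776% in males. The female *fru*- rank and share rest mainly on replicate 2, with *Hug* at 59.7 TPM against 1.02 TPM in replicate 1. Its rank was 21 in 1 of these libraries and 35 in the other. *Capa* stood above the median of the list in every group, at rank 12 in male *fru*+ and 14 in male *fru*- cells, 9 in female *fru*+ and 15 in female *fru*- cells. These ranks are also by mean TPM, and both male *fru*+ libraries taken singly had *Capa* at rank 11. Among 39 peptide receptor genes *PK2-R1* ranked 8 in male *fru*+ and 18 in male *fru*- cells, and 10 in female *fru*+ and 19 in female *fru*- cells. In single libraries the rank of *PK2-R1* was 8 to 13 in male *fru*+ and 18 to 19 in male *fru*- cells. In females it was 10 to 11 in *fru*+ and 13 to 24 in *fru*- libraries. The other receptors of the family stood between 28 and 37 in every group.

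Without *Hug*, the neuropeptide list held 41 tested genes. Of these, 9 were called higher and 1 lower in male *fru*+ than in male *fru*- cells, and 7 higher and 3 lower in females, where 0.514% and 0.653% of all genes were called in either direction. The list was chosen with earlier results of these data known, so these counts are a description and not an independent test. The median log2 fold change of the 41 genes was 0.46 in males and 0.78 in females, beside -0.14 and -0.11 over all genes. Called higher in both sexes were *CCAP* (crustacean cardioactive peptide), *Dsk* (drosulfakinin, a satiety peptide related to cholecystokinin), *Ilp3* (an insulin-like peptide of the brain's insulin-producing cells), *NPF* (neuropeptide F), *Proc* (proctolin) and *Trissin*. *Ilp5*, *Dh31* and *Ms* were called higher in males alone and *Capa* in females alone, without a gene of the list being called in the test of that difference. Called lower were *CCHa2* in males and *AstCC*, *Nplp3* and *Tk* in females. All these calls are from the fit without the replicate block. With the block, the genes called over the whole table fell from 52 to 35 in males and from 66 to 34 in females.

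Of the 38 tested receptor genes, 0 were called in any of the 5 comparisons by limma, with 3 in males and 2 in females at an unadjusted p under 0.05 between *fru*+ and *fru*- cells. With 0.514% and 0.653% of all genes called, a count of 0 in a list of this size is near the background. The list's median log2 fold change was -0.13 in males and -0.04 in females. The 10 genes for peptide processing, which include the prohormone convertase gene *amon* and the amidating enzyme gene *Phm*, also had 0 calls, 1 in males and 0 in females at an unadjusted p under 0.05, and medians of -0.06 and 0.11. The 8 genes of the Gq pathway through which these receptors raise calcium had 0 calls, 0 at an unadjusted p under 0.05 in either sex, and medians of -0.28 and -0.15, beside -0.14 and -0.11 over all genes. All 8 had negative estimates in males and 5 of 8 in females. *Galphaq*, the G protein subunit gene, had -0.45 in males and 0.54 in females.

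**Figure D3:**
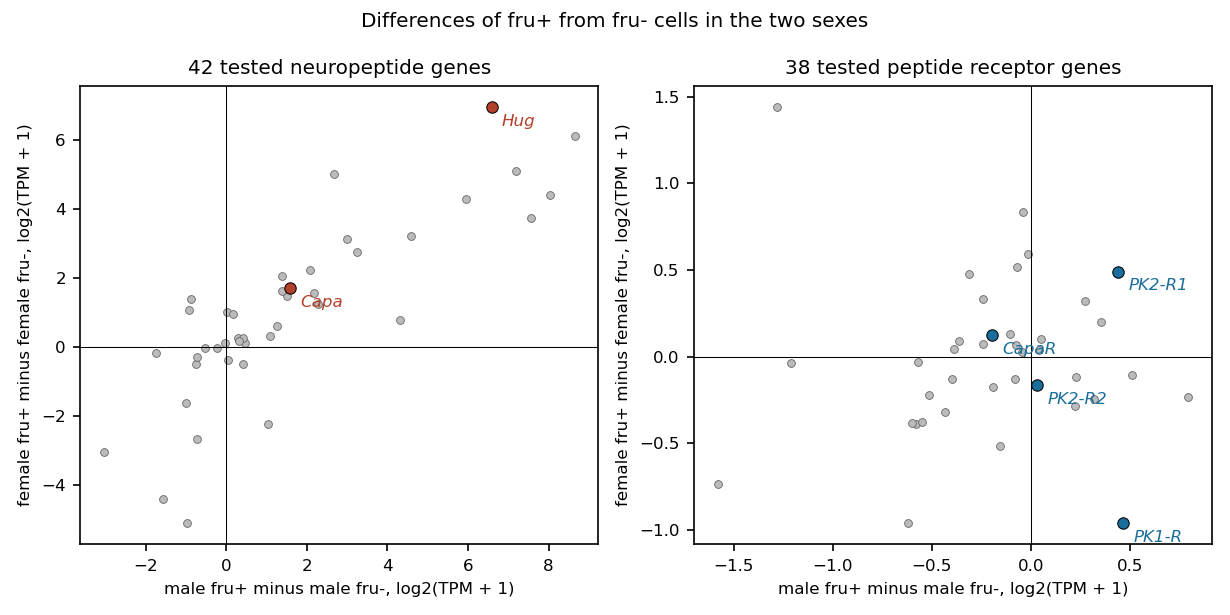
Log2 fold changes of *fru*+ over *fru*- cells in males (horizontal axis) and females (vertical axis), each on the log2(TPM + 1) scale, for 42 neuropeptide genes on the left and 38 peptide receptor genes on the right, with the family in colour. *Hug* lies at the upper right of the neuropeptides at 6.58 and 6.95, and of the 4 family receptors *PK2-R1*, at 0.44 and 0.49, is the 1 with both values above 0.

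In larvae, hugin neurons contact cells that make the diuretic hormone DH44 and insulin-producing cells. *Dh44* was listed at 118 and 131 TPM in male *fru*+ libraries and at 123 and 133 TPM in male *fru*- libraries, with a log2 fold change of -0.04 (limma adjusted p = 0.957). In females the log2 fold change of *Dh44* was 0.10 (limma adjusted p = 0.880). It did not differ by *fru* status as *Hug* did. *Ilp3* was, like *Hug*, higher in *fru*+ cells. It had 94.7 and 449.7 TPM in male *fru*+ libraries against 0.256 and 0.625 TPM in male *fru*- libraries. In females it had 88.6 and 222.1 TPM in *fru*+ libraries against 1.04 and 7.45 TPM in *fru*- libraries. Between the sexes of *fru*+ cells the *Ilp3* libraries overlapped, whereas both *Hug* levels were higher in females. *Ilp3* differed by a log2 fold change of 7.18 in males and 5.09 in females (limma adjusted p = 0.00406 and 0.0232). *Ilp5* was higher in males, by 8.04 on the log2 scale (limma adjusted p = 0.00365), and missed the threshold in females (4.39, limma adjusted p = 0.0588). *Ilp2* passed in neither (4.59 and 3.21, limma adjusted p = 0.105 and 0.208). *Ilp2* and *Ilp5*, like *Ilp3*, still had every *fru*+ library above every *fru*- library. Such a split, in either direction, held for 15.5% of the genes tested.

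The genes whose log2(TPM + 1) followed that of *Hug* most closely over the 8 libraries were *fru* (Pearson r = 0.986), *CG8401* (0.983), *Vmat* (0.982), *Dsk* (0.979) and *Trh* (0.978). *Vmat* encodes the vesicular monoamine transporter and *Trh* the tryptophan hydroxylase of serotonin synthesis. *Hug* and these 5 genes each had all 4 *fru*+ libraries above all 4 *fru*- libraries, and *fru* is the gene by whose driver the cells were sorted. Within the *fru*- libraries all 5 genes were higher in female replicate 2 than in female replicate 1, as *Hug* was. The 5 genes were chosen by their r with *Hug* over these same libraries, so neither likeness is a separate finding. *Dsk* was listed at 0.847 and 43.8 TPM in the female *fru*- replicates 1 and 2, and *Vmat* at 114 and 298 TPM.

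The pattern of *Capa* was nearest to that of *DAT*, the dopamine transporter gene (r = 0.978), and *Ant2*, a mitochondrial adenine nucleotide translocase gene (r = 0.963). *DAT* was listed at 172 and 217 TPM in male *fru*+ libraries and 79.1 and 61.5 TPM in male *fru*- libraries, and at 282 and 274 TPM in female *fru*+ libraries and 91.6 and 66.3 TPM in female *fru*- libraries. Like *Capa*, it was lower in replicate 2 than in replicate 1 of both *fru*- groups. *DAT* was chosen by its r over these same libraries, so this likeness is not a separate finding either. *Hug* and *Capa* had r = 0.856 with each other. For the receptors the nearest genes were *CG12643* (0.957) and *spn-B* (0.929) for *PK2-R1*, *Tpr2* (0.976) and *Mst77F* (0.954) for *PK2-R2*, *CG11737* (0.959) and *Grik* (0.901) for *PK1-R*, and *unc79* (0.973) and *Rbp6* (0.948) for *CapaR*. These are the highest of about 7200 values of r for each gene, over the same 8 libraries.

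**Figure D4:**
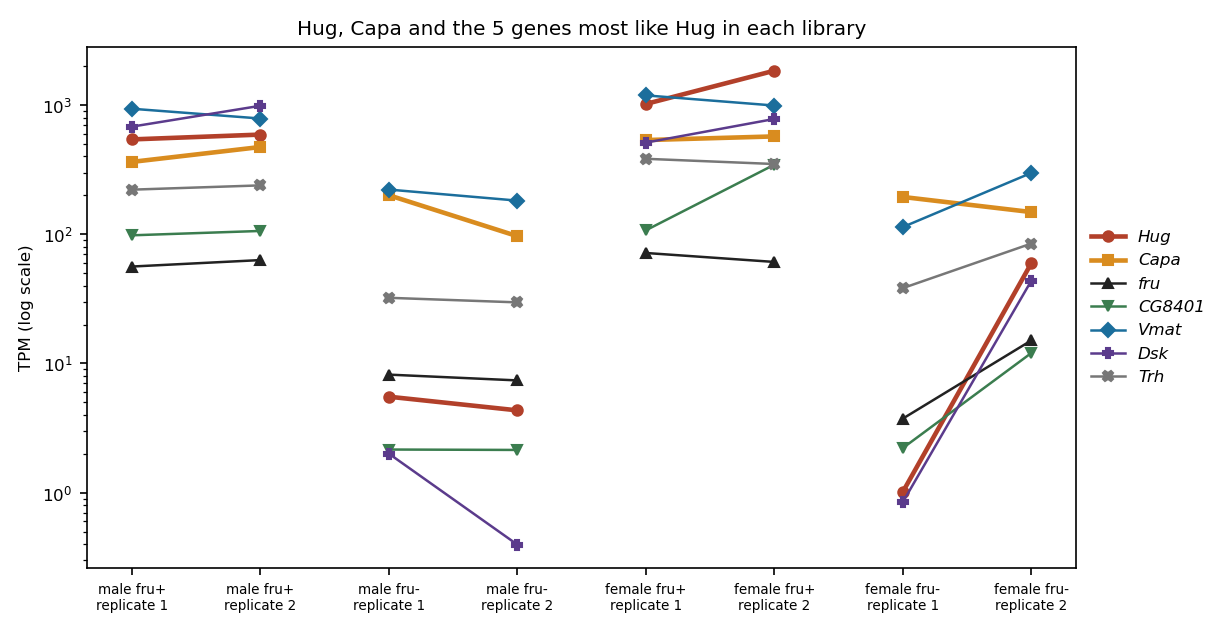
TPM on a log scale of *Hug*, *Capa* and the 5 genes most like *Hug* in each of the 8 libraries, with a line joining the replicates of a group. *Hug* and the 5 genes, which were chosen by their r with *Hug* over these libraries, are all higher in female *fru*- replicate 2 than in replicate 1. *Hug* is at 59.7 and 1.02 TPM in replicates 2 and 1, whereas *Capa* is lower in replicate 2, at 148.4 and 194.2 TPM.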

How the data were processed

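RNA-seq libraries were made from sorted cells with a poly-A, unstranded low-input kit and read as pairs of 150 bp. After trimming, the authors mapped reads with HISAT2 to dm6, retained unique alignments without duplicates and made each table with StringTie 2.1.1. The deposited TPM values are scaled by the authors to each library's total, the FPKM values deposited by the authors per kilobase and library size, and the deposited coverage is the mean read depth per base, unscaled. The TPM columns list reference genes and loci assembled from the reads, each set summing to about 1000000, and only reference genes were used. The authors tested counts with DESeq2, and no counts were used here, so no counting interval is given and read numbers are approximate, from coverage and exon length.

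The values log2(TPM + 1) were fitted in limma 3.58.1 (R 4.3.3) to 4 group means with a variance trend. Each gene has a single estimate of spread, shared by the 4 groups. Benjamini-Hochberg adjustment ran over 10111 genes at a threshold of 0.05 (5 comparisons). The fit was tested on simulated data. Replicates were separate sorts, and male and female cells of a replicate shared a session. Same-numbered *fru*+ and *fru*- libraries came from the same brains. Their deviations from the group means correlated across genes at r = 0.25 in males and -0.04 in females. The replicate block, a shift shared by the male and female libraries, is given for the family where it changes a call. Calls of the other named genes and of the markers are from the fit without it. The members and lists were chosen with earlier results of these data known. Named besides the members are the 5 genes most correlated with *Hug* and the 2 most correlated with each other member, among tested genes reaching 10 TPM, the listed genes that were called, and *Dh44*, *Ilp2*, *Ilp3* and *Ilp5*. Of 50 neuropeptide genes listed, 49 were matched. Coordinates are those of the deposited tables and match the Ensembl annotation. Python 3.11.15 with pandas 2.3.3, numpy 2.4.6 and matplotlib 3.10.9 served for tables and plots.

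Results were recomputed with a pseudocount of 0.1, without the filter, with a filter on a mean TPM of at least 1, with median-of-ratios scaling, FPKM, without the variance trend, with the replicate block, with a fit to only the 4 libraries compared, leaving out each library, and assembled loci covering at least 50% of a gene.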

Additional observations from a re-analysis of the deposited data

How the results depend on the processing

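Groups of 2 libraries limit every value, and levels under about 4 TPM rest on few reads. The *Capa* call in females was the 1 call of the family. The number of family genes called in females was 0 with a pseudocount of 0.1, with no filter, with median-of-ratios scaling, without the trend, with the replicate block and with only the 4 libraries, and 0 to 1 on leaving out a library. Those calls ranged from 0 to 1 in males and between the sexes in *fru*- cells, where *Hug* was called without female *fru*- replicate 1, and were 0 in the other comparisons. Genes called over the whole table numbered 14 with no filter, 18 without the trend, 182 with only the 4 libraries and 5 to 155 on leaving out a library for male *fru*+ against *fru*- cells. For female cells they numbered 0 with no filter (1808 by limma at an unadjusted p under 0.05), 32 without the trend, 34 with the replicate block, 3 with only the 4 libraries and 4 to 236 on leaving out a library. For male against female *fru*+ cells they were 19 with no filter and 5 to 12 on leaving out a library, and for *fru*- cells 6 with only the 4 libraries and 6 to 18. The interaction gave 1 gene with a pseudocount of 0.1 and 0 to 2 on leaving out a library. The replicate block changed no other call of the family.

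Reversals came from leaving out a library, except the interaction of *PK2-R1*, which was 0.0701 with FPKM. On leaving out a library the male *fru*+ to *fru*- estimates ran from -0.10 to 0.16 for *PK2-R2* and -0.50 to 0.11 for *CapaR*, and the female ones from -0.60 to 0.27 and -0.54 to 0.79. Male against female *fru*+ cells gave -0.12 to 0.32 for *PK2-R1* and -0.73 to 0.59 for *CapaR*. Male against female *fru*- cells gave -3.36 to 1.55 for *Hug*, -0.81 to 0.24 for *Capa*, -0.0912 to 0.39 for *PK2-R1*, -0.83 to 0.15 for *PK1-R* and -0.22 to 0.72 for *CapaR*. The interaction ran from -0.65 to 0.39 for *Capa*, -0.29 to 0.19 for *PK2-R1*, -0.24 to 0.63 for *PK2-R2* and -0.98 to 0.34 for *CapaR*. The cause was not tested. With assembled loci the mean level of *PK2-R1* was 22.5 TPM in male *fru*+ libraries and 14.6 TPM in male *fru*- libraries, and 22.7 TPM in female *fru*+ libraries and 14.4 TPM in female *fru*- libraries. Of 24 group levels, 8 moved by less than the spread of the replicates, 7 by more, and 9 had no assembled locus in some library.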

Other observations

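Among the other peptide genes, *Lk*, which encodes the diuretic peptide leucokinin, ran opposite to *Hug*. Its mean level was 19.5 TPM in male *fru*+ libraries and 203 TPM in male *fru*- libraries, and 21.6 TPM in female *fru*+ libraries and 199 TPM in female *fru*- libraries. The log2 fold changes, -3.04 and -3.06, missed the threshold (limma adjusted p = 0.0633 and 0.0595). *Lk* was chosen after its values were seen.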
